A study of Mus musculus with 6 samples.

Results

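The ratio of RNA from cyclosporin A-treated to ethanol-treated mouse back skin was compared between 4 and 2 days of treatment, on 4 of the 6 arrays of the study: 2 from day 2 and 2 from day 4. The measure is the difference, for each gene, between the mean log2(Cy5/Cy3) of the day 4 arrays and that of the day 2 arrays, and it is called the change here. Every array carried RNA of cyclosporin A-treated skin labelled with the red dye Cy5 and RNA of ethanol-treated control skin of the same day labelled with the green dye Cy3, both from mice of the strain given as C57/BL. The dyes were never swapped, so a dye effect that is the same on both days cancels in this difference but not in the ratio of either day. Age, sex and the number of mice behind each RNA sample are not given in the labels. The samples are described there as biological replicates, but every description carries an identical replicate number. First and second arrays were therefore told apart by their titles. Whether the RNA samples came from separate animals was not tested. The p-values below measure only the spread between these samples. The 4 arrays lay on 1 slide, with day 2 in positions 1 and 2 and day 4 in positions 3 and 4, so that day and position on the slide cannot be told apart. The remaining 2 arrays, of day 7, lay on another slide and entered the fit only through its estimate of the spread. They also counted in keeping probes above background, in picking 1 probe per gene and in normalising the single channels.

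Cyclosporin A blocks calcineurin, a phosphatase that activates NFAT transcription factors, and so damps the induction of cytokines by T cells. In mice it is also known to push resting hair follicles into the growth phase. At the start of growth, cells of the hair germ and then of the hair matrix divide, sonic hedgehog and Wnt signals act in the growing bulb, keratins of the inner root sheath (the sleeve that moulds the hair) appear, and the keratins of the hair shaft and its pigment follow. Fibroblasts, macrophages, the muscle layer below the skin and the fat layer share the tissue with the follicles.

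Of 22751 genes represented by 1 probe each, 22750 could be tested for the change, and 13472 of those carry a RefSeq gene symbol. The green channel was well above background for between 45.6% and 56.5% of the probes on these 4 arrays and the red channel for between 66.2% and 68.8%. The 10 markers of back skin that were checked, among them the epidermal keratins Krt5, Krt14 and Krt10 and the dermal collagens Col1a1 and Col3a1, each cleared background on every one of the 4 arrays, in red and in green. The day 2 arrays differed from each other more than the day 4 arrays did. Over the genes measured on both arrays, the ratios of the first day 2 array had a Pearson correlation of 0.01 with those of the second, against 0.43 between the 2 day 4 arrays and 0.44 between the second day 2 array and the first day 4 array. The first day 2 array correlated at 0.25 and 0.17 with the day 4 arrays and at 0.22 and 0.45 with the day 7 arrays, and the second at 0.26 and 0.13 with the day 7 arrays. Whether the labels of the first day 2 array match its RNA was not tested. Many of the changes that were much smaller without it, though not all, are given without it as well. In a tissue of many cell types, fewer cells of a type and less RNA per cell cannot be told apart.

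No gene passed the test for the change. Limma (Benjamini-Hochberg adjusted p under 0.05 over all genes) called 0 of 22750 genes, or 0%, the lowest adjusted p was 0.999, and 509 genes had an unadjusted p under 0.05 where 1138 would be reached by chance alone. With 2 arrays against 2, an exact permutation test of a single gene cannot go below p = 0.33. The genes are therefore described by whether the arrays of the 2 days overlapped. Both day 4 ratios lay above both day 2 ratios in 3805 genes, 16.7% of those tested, and below both in 2888 genes, 12.7%. With the 4 arrays in random order, 16.7% of genes would be expected in each direction. The 2 counts are thus near or below that share. A gene is said to be set apart where the days did not overlap and their means differed by at least 1 log2 unit: 35 genes (0.154%) were set apart with the higher ratio on day 4 and 34 (0.149%) with the lower. The change of the median gene was 0.01.

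On the inner root sheath list 2 keratins were set apart, Krt71 and Krt25. Krt71, a type II keratin of the inner root sheath, had log2 ratios of 0.26 and 0.29 on the day 2 arrays and of 1.83 and 2.26 on the day 4 arrays. Its change was 1.77 (SE 0.19) and had the lowest unadjusted p of all genes, 4.54e-05, with an adjusted p of 0.999 by limma. Tested against a ratio of 1, Krt71 was the 1 gene called on day 4 (0.0044% of the genes), with a mean log2 ratio of 2.04 (SE 0.14) and a limma adjusted p of 0.0431; the dye effect does not cancel in that test. The difference lay in the treated skin: the log2 intensity of Krt71 in the cyclosporin A channel was 7.23 and 7.03 on day 2 and 9.13 and 9.03 on day 4, while in the ethanol channel it was 6.97, 6.74, 7.30 and 6.77 and was well above background on 1 of the 4 arrays, so these ratios are set against a control signal near background.

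Krt25, the type I keratin of the same sheath, had log2 ratios of 0.43 and 0.05 on day 2 and of 2.09 and 2.05 on day 4, a change of 1.83 (SE 0.44). In the ethanol channel none of the 4 arrays had it well above background, so its day 4 level in treated skin can only be placed at least 4.2-fold above the control. That bound sets the mean of the cyclosporin A channel against, for each array, the higher of the probe's own green signal and the lowest green signal that was well above background. Krt27, a further type I keratin of the sheath, had ratios of 0.33 and -0.34 on day 2 and 0.54 and 0.87 on day 4. The groups did not overlap for any of these 3 keratins. Of the 15 genes on the inner root sheath list 10 were measured, and 3 cleared background in red and green on every array. Of the 10, 4 lay higher on day 4 without overlap and 0 lower, against 16.7% and 12.7% of all genes. Among probes above background throughout, 0 of 3 lay higher and 0 lower. Of the 10, 2 were set apart, against 0.154% of all genes set apart higher, and the median change was 0.10. The sheath list as a whole thus showed a small median beside large values for Krt25 and Krt71.

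The 120 bases before the start sites of these 3 genes are shown because these keratins had the largest changes on the inner root sheath list. The sequences are from RefSeq (GRCm38.p6) and run 5′ to 3′ on the gene's strand. Capitals mark the TATA box letters TATAAA, searched on both strands. Krt71 lies at chr15:101743098-101743217, Krt25 at chr11:99322952-99323071 and Krt27 at chr11:99351119-99351238, all on the minus strand.
Krt71: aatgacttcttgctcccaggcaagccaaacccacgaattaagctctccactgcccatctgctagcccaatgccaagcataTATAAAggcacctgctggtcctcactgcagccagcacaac
Krt25: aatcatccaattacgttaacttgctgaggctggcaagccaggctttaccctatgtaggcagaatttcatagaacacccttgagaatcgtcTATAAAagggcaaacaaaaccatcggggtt
Krt27: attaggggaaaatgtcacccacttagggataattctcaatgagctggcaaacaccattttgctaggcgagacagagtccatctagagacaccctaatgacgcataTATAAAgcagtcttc
The letters occurred in this window in 6 of the 9 measured inner root sheath genes with a promoter entry (66.7%) and in 6.76% of all 27025 genes with one. A match describes the sequence and is not evidence of a bound site.

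Hair shaft keratins, which build the fibre itself, were mostly dim on both days, with 1 of 6 measured members above background in both channels throughout. Krt35, a type I keratin of the early hair shaft, had the largest change of the 6, with log2 ratios of 0.98 and 0.45 on day 2 and of 1.64 and 1.78 on day 4 and a change of 0.99 (SE 0.21). Krt33a, by contrast, had ratios of 0.08 and 1.12 on day 2 and of 0.95 and 0.89 on day 4, so the days overlapped, and no array had it well above background in the ethanol channel. Of the 12 shaft keratins on the list 6 were measured. Without overlap 1 lay higher and 1 lower on day 4, against 16.7% and 12.7% of all genes. The median ratio was 0.07, 0.14, 0.11 and 0.19 on the 4 arrays in the order of day and replicate. On the day 7 arrays of the other slide it was 3.84 and 3.78. The 23 measured keratin-associated proteins, which cross-link those fibres, had a median change of 0.04. Of these 3 lay higher and 3 lower without overlap, beside the same 16.7% and 12.7% of all genes.

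Some regulators of the hair matrix also had the higher ratio on day 4. Shh, the hedgehog ligand of the growing bulb, had ratios of 0.32 and 0.07 on day 2 and 0.87 and 0.98 on day 4, a change of 0.73 (SE 0.29). Msx2, a homeobox factor of the matrix, had 0.32 and 0.46 against 1.07 and 1.09, a change of 0.69 (SE 0.19). Dlx2, another homeobox factor, had 1.12 and 0.80 against 1.52 and 1.73. The days did not overlap for any of the 3 genes, and the ratios of both days were above 0. Wnt10a, a Wnt ligand of the follicle, had -0.67 and 0.03 against 0.04 and 0.44, so its days were barely separated. Its change was 0.21 without the first day 2 array. In control skin neither Shh nor Dlx2 cleared background on these arrays. The day 4 level in treated skin was at least 1.9-fold (Shh) and at least 2.84-fold (Dlx2) above the control, by the same bound as for Krt25. Across the list, 9 of the 40 measured regulators lay higher without overlap and 2 lower, against 16.7% and 12.7% of all genes, and the median change was 0.12.

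Pigment cell genes were higher on day 4 in 8 of 12 measured members without overlap, with 1 lower and a median change of 0.37, against 16.7% and 12.7% of all genes for the 2 directions. That count depended on the processing: from the processed signals and from the deposited log ratios, 3 of 12 lay higher and 1 lower. The list median of the ratio was 0.64 and 0.18 on day 2 and 0.61 and 0.56 on day 4. By this median the days overlapped. Pmel, the matrix protein of the pigment granule, had ratios of 1.89 and 0.90 on day 2 and of 2.09 and 2.16 on day 4. Slc45a2 and Slc24a5, transporters of that granule, had changes of 0.59 (SE 0.23) and 0.51 (SE 0.19). In control skin Slc24a5 cleared background on no array, so its change is measured against background, and its day 4 level in treated skin was at least 2.24-fold above the control by the bound used for Krt25. Ednrb, the endothelin receptor of melanocytes that vessels and other cells also carry, had the lower mean ratio on day 4, with 1.55 and -0.37 on day 2 and 0.09 and -0.64 on day 4, and without the first day 2 array its difference was 0.09. Without the second day 2 array the change of Pmel was 0.24. Of the 12, 6 cleared background in red and green on every array. Among probes above background throughout, 2 of 6 lay higher without overlap and 1 lower.

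**Figure D1:**
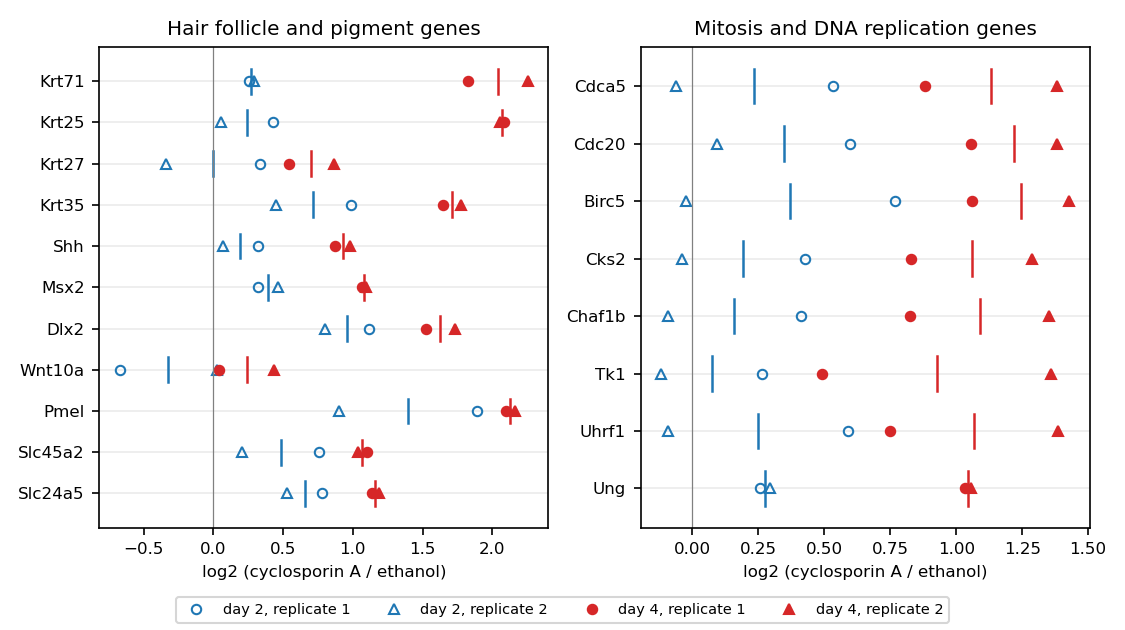
Log2 ratio of cyclosporin A-treated over ethanol-treated skin (horizontal axis) for follicle and pigment genes (left) and for mitosis and DNA replication genes (right); each symbol is 1 array and each short bar the mean of a day. For Krt71 the day 2 arrays sit at 0.26 and 0.29 and the day 4 arrays at 1.83 and 2.26. The 8 division genes were picked as the 4 largest changes of each list, and none of them overlaps between the days. Over the whole lists, 40 of 44 mitosis genes and 22 of 30 DNA replication genes did not overlap.

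Genes of cell division had the higher ratio on day 4 almost throughout. Of 44 measured mitosis genes, 40 lay higher on day 4 on both arrays than on either day 2 array and 0 lay lower, against 16.7% and 12.7% of all genes; all 44 had a change above 0, against 51.8% of all genes. The median change was 0.57, with a range from 0.06 to 0.90. Limma called none of them, and 14 had an unadjusted p under 0.05. The list median of the log2 ratio was 0.34 and -0.02 on the day 2 arrays and 0.55 and 0.86 on the day 4 arrays, so the days were separated but each of the 4 arrays stood at its own level.

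Cdc20, the activator of the anaphase-promoting complex, had ratios of 0.60 and 0.09 on day 2 and 1.06 and 1.38 on day 4, a change of 0.87 (SE 0.22). Birc5 (survivin), a subunit of the chromosomal passenger complex, had 0.77 and -0.03 against 1.06 and 1.43. Cdca5 (sororin), which protects the cohesion of sister chromatids, had 0.53 and -0.06 against 0.88 and 1.38. Cks2, a subunit that binds cyclin-dependent kinases, had 0.43 and -0.04 against 0.83 and 1.29. A second, dim probe for Cdca5 that did not pass the filter gave a change of 0.13. In each of the 4 genes the second day 2 array was near a ratio of 1 and the first lay between it and day 4. Over the whole list the median change was 0.75 without the first day 2 array and 0.46 without the second day 4 array.

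The difference in the mitosis genes was mainly one of the treated skin. Between the days the median log2 intensity of the list differed by 0.82 in the cyclosporin A channel, where all 44 genes were brighter on day 4, and by 0.20 in the ethanol channel, where 40 were. Neither channel had a called member. Over all genes limma called 0 of 22750 (0%) in the cyclosporin A channel and 1 (0.0044%) in the ethanol channel, and 327 and 2008 genes respectively had an unadjusted p under 0.05.

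The promoters of the 4 mitosis genes are shown because these genes shared 1 direction on every array pair. The same 120 bases before the start are given, with capitals for TTTGAA, the letters of the cell cycle homology region, and for CCAAT, each on both strands (on the reverse strand they read TTCAAA and ATTGG). Cdca5 lies at chr19:6084977-6085096 on the plus strand, Cdc20 at chr4:118437344-118437463 on the minus strand, Birc5 at chr11:117849117-117849236 on the plus strand and Cks2 at chr13:51645112-51645231 on the plus strand.
Cdca5: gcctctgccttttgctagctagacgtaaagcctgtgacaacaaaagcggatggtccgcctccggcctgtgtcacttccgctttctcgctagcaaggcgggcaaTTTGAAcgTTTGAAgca
Cdc20: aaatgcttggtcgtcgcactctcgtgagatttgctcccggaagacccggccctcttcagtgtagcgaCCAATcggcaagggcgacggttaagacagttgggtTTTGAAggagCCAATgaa
Birc5: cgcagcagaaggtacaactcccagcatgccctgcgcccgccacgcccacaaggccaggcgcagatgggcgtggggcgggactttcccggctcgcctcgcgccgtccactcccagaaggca
Cks2: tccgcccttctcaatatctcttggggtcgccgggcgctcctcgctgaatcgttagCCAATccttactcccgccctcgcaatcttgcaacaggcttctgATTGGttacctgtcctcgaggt
CCAAT stood in this window in 28 of 39 measured mitosis genes with an entry (71.8%) and in 22.1% of all genes with one; TTTGAA stood in 10 of the 39 (25.6%) and in 7.24% of all. The Birc5 window holds neither set of letters.

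DNA replication genes had the same median change as the mitosis genes, 0.57, but a different split between the channels. Of 30 measured members 22 lay higher on day 4 without overlap and 0 lower, against 16.7% and 12.7% of all genes. All 30 had a change above 0, against 51.8% of all genes. The median ratio of the list was 0.34 and 0.03 on day 2 and 0.52 and 0.94 on day 4. In the cyclosporin A channel the median difference was 0.39, with all 30 genes brighter on day 4, and in the ethanol channel it was -0.15, with 4 brighter. Without normalisation between arrays these medians were 0.54 and -0.015. Ung, the uracil-DNA glycosylase of base excision repair, was the most evenly separated, with 0.26 and 0.29 on day 2 and 1.03 and 1.06 on day 4 and a change of 0.77 (SE 0.17). Tk1, thymidine kinase, had 0.27 and -0.12 against 0.49 and 1.36. Chaf1b, a histone chaperone of the replication fork, and Uhrf1, which recruits the maintenance DNA methyltransferase, had changes of 0.93 (SE 0.41) and 0.82 (SE 0.38). Without the first day 2 array the list median was 0.65, and without the second day 4 array 0.36.

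Cytosolic ribosomal proteins also had the higher ratio on day 4 in most members, by less. Of 42 measured members 28 lay higher without overlap and 0 lower, against 16.7% and 12.7% of all genes. The median change was 0.29, and the list median of the ratio was 0.19 and 0.23 on day 2 and 0.42 and 0.44 on day 4. Here the ethanol channel carried the difference: its median was lower on day 4 by 0.23 (-0.23), and that of the cyclosporin A channel differed by 0.03. Rps7 had ratios of 0.36, 0.23, 0.46 and 1.36 in the order of day and replicate and Rps18 had 0.49, 0.42, 0.70 and 1.36, so that the second day 4 array was the highest for both. Without that array the list median was 0.23.

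**Figure D2:**
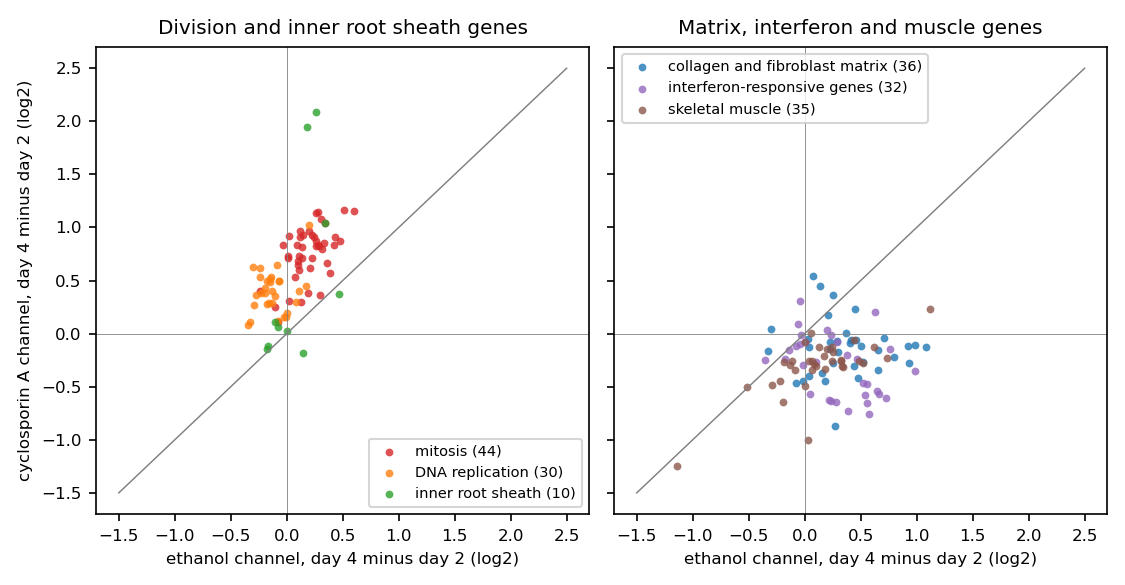
Day 4 minus day 2 difference of log2 intensity in the ethanol channel (horizontal) and in the cyclosporin A channel (vertical), 1 point per measured gene of each list; on the diagonal the ratio is the same on both days. Mitosis genes lie above the diagonal with a median of 0.82 in the cyclosporin A channel and 0.20 in the ethanol channel, and collagen genes lie mostly below it with medians of -0.13 and 0.29. Without the first day 2 array the collagen medians are 0.12 and 0.32.

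The 15 largest changes towards a higher ratio on day 4, among set-apart genes that cleared background in red and green on every array, are described one by one; none was called. They include genes of myeloid cells, while the macrophage and neutrophil lists had median changes of -0.41 and 0.09. Ccl19, a chemokine that guides dendritic cells and naive T cells, had ratios of -0.99 and -0.29 on day 2 and of 0.70 and 0.80 on day 4, a change of 1.39 (SE 0.27). Ccl17, a chemokine made by dendritic cells and keratinocytes that draws CCR4-bearing T cells, had -0.97 and -0.63 against 0.14 and 0.73, a change of 1.24 (SE 0.24). The 2 genes were below the control on both day 2 arrays and above it on both day 4 arrays. A second probe for Ccl19 had -1.12 and -0.48 against 0.53 and 0.65. For Ccl19 both channels differed between the days, with log2 intensities of 12.5 and 12.8 on day 2 and 13.4 and 13.5 on day 4 in treated skin, and of 13.5, 13.1, 12.7 and 12.7 in control skin.

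Il1b, the interleukin 1 cytokine, had ratios of 0.08 and -0.34 on day 2 and 0.64 and 1.15 on day 4, a change of 1.03 (SE 0.23). Gpnmb, a glycoprotein of melanocytes and macrophages, had -0.86 and -0.43 against 0.48 and 0.28. Exo1, an exonuclease of DNA repair, had 0.43 and 0.15 against 1.12 and 1.50. For these 3 genes and the 2 chemokines the change stayed at 0.78 or above with any 1 of the 4 arrays left out. A second probe for Gpnmb that did not pass the filter gave 0.04. In several others the second day 4 array was far above the first, as in H1f4, a linker histone (-0.47 and -1.02 against 0.35 and 1.86), Mpo, the neutrophil myeloperoxidase (-1.67 and -0.28 against -0.03 and 1.36), and Mt2, a metallothionein (0.09 and 0.12 against 0.47 and 2.29). The second day 4 array was the higher of the pair in 13 of the 15 genes. Without it the change was 1.09 for H1f4, 0.94 for Mpo, 0.36 for Mt2, 0.52 for Marco (a macrophage scavenger receptor), 0.44 for S100a9 (a calprotectin subunit of neutrophils), 0.44 for Trim37 (a ubiquitin ligase) and 0.35 for Gbf1 (an exchange factor of the Golgi). For Tkfc, a kinase of triose metabolism, the change was 0.04 without the first day 2 array. Other probes gave changes of 0.16 and 0.21 for Trim37 and of -0.09 for Gbf1, far from those of the brightest probe. The remaining 2 of the 15 were Rmrp, the RNA of RNase MRP, at 1.39 and H2ac13, a histone H2A gene, at 1.12.

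As a list, the chemokines, cytokines and alarmins had a median change of 0.02 over 31 measured genes, with 5 higher and 2 lower without overlap. Ccl6 and Ccl9, chemokines of myeloid cells, had the lower ratios on day 4, with changes of -1.45 (SE 0.85) and -1.07 (SE 0.72), and both were high on the first day 2 array: Ccl6 had 2.16 there against -0.72, -0.95 and -0.51 on the other arrays, and Ccl9 had 1.62 against -0.30, -0.61 and -0.21. Without it the changes were -0.01 for Ccl6 and -0.11 for Ccl9. The list's shares without overlap were near the 16.7% and 12.7% of all genes or below. Neutrophil genes (12 measured) had 6 higher and 2 lower without overlap, against 16.7% and 12.7% of all genes, and a median change of 0.09. Of the neutrophil genes 5 cleared background in red and green on every array. The neutrophil counts were 4 higher and 1 lower from the deposited log ratios, and 3 and 1 with median centring. MHC class II and Langerhans cell genes lay higher on day 4 in 7 of 16 measured members without overlap and lower in 0, against 16.7% and 12.7% of all genes, with a median change of 0.37. H2-Ab1, a class II beta chain, had ratios of -0.42 and -0.48 on day 2 and -0.18 and 0.66 on day 4, and Cd83, a marker of mature dendritic cells, had -0.49 and -0.68 against 0.19 and -0.13. Cd207 (langerin) had -0.25 and 0.40 against 0.45 and 0.65, and its change was 0.15 without the first day 2 array. Ciita, the class II transactivator, had -1.69, -0.57, -0.67 and 0.71 and overlapped. Cd74, the invariant chain, had -0.87, -0.43, -0.63 and -0.12, and overlapped too. Without the second day 4 array the median of the class II list was 0.21, and without the first 0.55.

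Early response genes showed Dusp2, a phosphatase induced in activated lymphocytes, at -0.65 and -0.31 on day 2 and 0.21 and 0.75 on day 4, a change of 0.96 (SE 0.25), and Egr1, a zinc finger factor, at -0.58 and 0.81 against 0.92 and 0.64. For Egr1 the days overlapped. The 23 measured early genes had a median change of 0.12, with 4 higher and 2 lower without overlap, against 16.7% and 12.7% of all genes. Among 25 measured genes of wounded or hyperproliferative keratinocytes 8 lay higher without overlap and 0 lower, against 16.7% and 12.7% of all genes, with a median change of 0.31 that was 0.07 without the first day 2 array. Hbegf, an EGF receptor ligand, had -0.71 and 0.11 against 0.45 and 0.67, and Sprr2h, a cornified envelope protein, had -0.53 and 0.48 against 0.48 and 0.68. These changes were 0.45 and 0.11 without the first day 2 array. Fbp1, a gluconeogenic enzyme named because of its level on day 7, had 0.03 and -0.17 against 0.49 and 0.76, a change of 0.70 (SE 0.20) without overlap. Hamp2, a hepcidin named for the same reason, had 0.69 and 0.07 against 0.31 and -0.73, and its days overlapped.

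**Figure D3:**
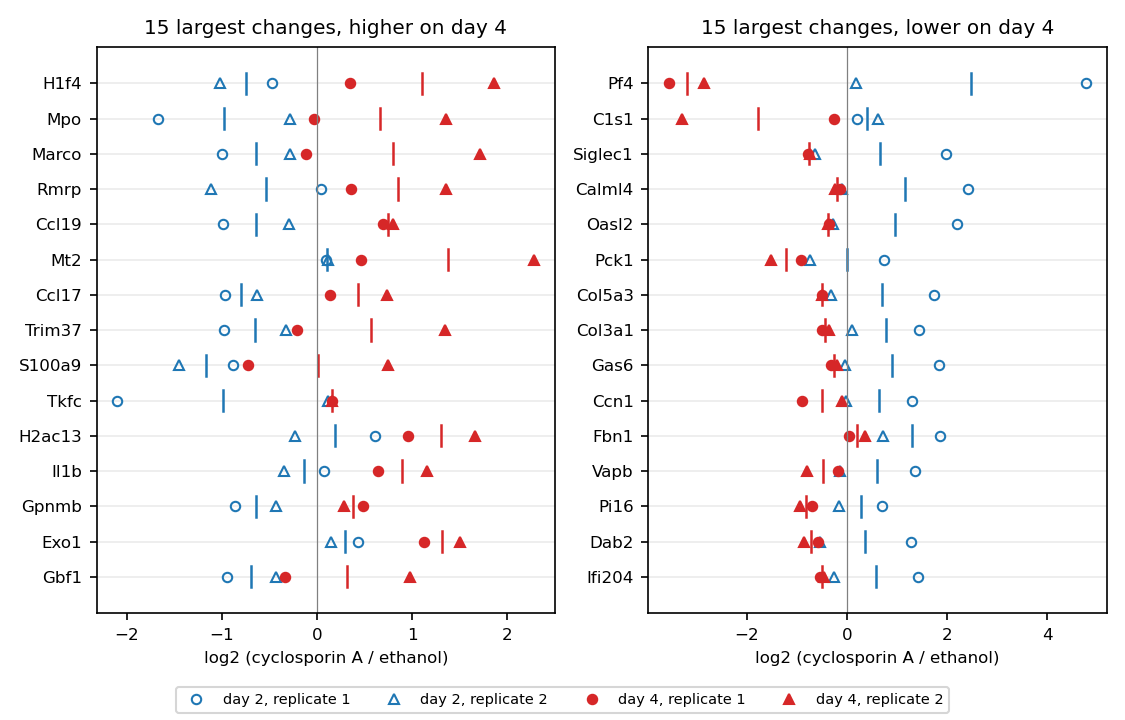
Log2 ratio of cyclosporin A-treated over ethanol-treated skin on each of the 4 arrays, for 15 genes in each direction. These had the largest changes among set-apart genes with a symbol that cleared background in red and green on every array. Krt25 and Krt71 did not clear it and are not plotted here. Symbols are arrays and short bars the means of a day. On the left the second day 4 array is the higher of the day 4 arrays in 13 of 15 genes; on the right the first day 2 array is the higher of the day 2 arrays in 14 of 15 and lies over 1 log2 unit above the second in 13.

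The 15 largest changes towards a lower ratio on day 4 were chosen by the same rule as the higher ones. They included collagens, interferon-induced genes and macrophage genes, and most of them were smaller without 1 array. The first day 2 array was the higher of the day 2 arrays in 14 of the 15 genes, by more than 1 log2 unit in 13. Col3a1, the type III fibrillar collagen, had ratios of 1.45 and 0.10 on day 2 and -0.50 and -0.36 on day 4, a change of -1.21 (SE 0.40). Col5a3, a type V collagen chain, had 1.74 and -0.33 against -0.50 and -0.51, and Fbn1 (fibrillin 1) had 1.85 and 0.72 against 0.03 and 0.35. Ccn1, a matricellular protein, had 1.29 and -0.01 against -0.89 and -0.11. Without the first day 2 array the changes were -0.54 (Col3a1), -0.18 (Col5a3), -0.53 (Fbn1) and -0.49 (Ccn1). Over all 36 measured collagen and matrix genes 14 lay lower without overlap, 6 of them set apart, and 1 higher, with a median change of -0.49. Of all genes 12.7% lay lower without overlap, 0.149% were set apart lower and 16.7% lay higher. Without the first day 2 array the median was -0.16 and 17 genes lay below the second day 2 array on both day 4 arrays (47.2%, against 34.4% of all genes).

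A second probe for Fbn1 gave a change of -1.07, while a second probe for Col3a1 gave -0.32 and one for Col5a3 -0.27. The matrix genes had a median channel difference of -0.13 in treated and 0.29 in control skin, or -0.049 and 0.42 without normalisation between arrays. Without the first day 2 array these medians were 0.12 (treated) and 0.32 (control), so the treated one changed sign. The list median of the ratio was 0.71 and -0.19 on day 2 and -0.30 and -0.36 on day 4, so that the first day 2 array alone was above 0.

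Interferon-responsive genes had a median change of -0.59 over 32 measured members. Without overlap 7 lay lower and 1 higher, against 12.7% and 16.7% of all genes. On both day 4 arrays 28.1% of the members lay below the second day 2 array, against 34.4% of all genes. Isg15, a ubiquitin-like protein, had ratios of 2.00 and -0.36 on day 2 and -0.94 and -0.08 on day 4. Oasl2, of the oligoadenylate synthetase family, had 2.20 and -0.27 against -0.36 and -0.39. Oasl1, of the same family, and Zbp1, a sensor of Z-form nucleic acids, had changes of -1.33 (SE 0.82) and -1.23 (SE 0.83). For Isg15 the cyclosporin A channel was 11.2 on the first day 2 array and 9.3, 9.5 and 9.5 on the others, and the ethanol channel was 9.2 and 9.7 on day 2 and 10.5 and 9.5 on day 4. Over the list the channels differed between the days by medians of -0.26 (treated) and 0.26 (control). Without the first day 2 array these channel medians were 0.20 (treated) and 0.24 (control), so the treated one changed sign. Without the first day 2 array the median change of the list was -0.03, and the changes were -0.15 for Isg15, -0.10 for Oasl2, -0.0012 for Oasl1 and -0.03 for Zbp1.

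Macrophage and monocyte genes followed the same array. All 21 measured members had a change below 0. Without overlap, however, 1 lay lower and 0 higher, against 12.7% and 16.7% of all genes. The median change was -0.41, and without the first day 2 array it was 0.16, of the opposite sign. Lyve1, a hyaluronan receptor of macrophages and lymphatic vessels, had ratios of 2.68 and 0.69 on day 2 and -0.51 and 0.74 on day 4. Fcgr1, an Fc receptor, had 2.08 and -0.50 against -0.62 and -0.13, and without the first day 2 array its difference was 0.13. Msr1, a scavenger receptor, and F13a1, the factor XIII A chain, had changes of -1.11 (SE 0.58) and -1.08 (SE 0.64), which were -0.12 and 0.01 without that array; that of Lyve1 was then -0.57. The list median of the ratio was 0.66 on that array and -0.45, -0.17 and -0.44 on the others. The collagen, interferon and macrophage lists were thus high together on 1 array, with list medians of 0.71, 0.68 and 0.66, while epidermal differentiation and basal keratinocyte genes were low on it, with list medians of -0.43 and -0.45 against 0.39 and 0.22 on the second day 2 array. What part the makeup of that skin sample has in these values was not tested.

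Others of the 15 with a lower ratio on day 4 were Siglec1 (a macrophage lectin, change -1.42), Calml4 (a calmodulin-like protein, -1.35), Gas6 (a ligand of TAM receptor kinases, -1.16), Vapb (a membrane protein of the endoplasmic reticulum, -1.09), Dab2 (an endocytic adaptor, -1.08) and Ifi204 (an interferon-inducible DNA sensor, -1.08). These 6 changes lay between -0.34 (Vapb) and -0.10 (Calml4) without the first day 2 array. Other probes gave -0.20 for Siglec1, -0.27 for Dab2, and 0.16 and 0.00068 for Vapb. For Ifi204 they gave -1.08 and -0.71. Pck1, the gluconeogenic enzyme that fat cells also use, had 0.74 and -0.75 against -0.93 and -1.52, and its change was -0.48 without the first day 2 array. Pi16, a peptidase inhibitor of fibroblasts, had 0.70 and -0.16 against -0.69 and -0.94, and its change was -0.66 without that array. C1s1, a complement protease, had 0.20 and 0.62 against -0.26 and -3.30, and a second probe gave 0.18 and 0.28 against -0.48 and -2.64; without the second day 4 array its change was -0.67.

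Pf4 (platelet factor 4, a chemokine of platelets and megakaryocytes that some macrophages also make) had the largest difference among the genes with a symbol. Its log2 ratio was 4.77 and 0.17 on day 2 and -3.55 and -2.85 on day 4, a change of -5.67 (SE 1.30). In the cyclosporin A channel its log2 intensity was 14.27 on the first day 2 array and 9.78, 9.81 and 9.70 on the others; in the ethanol channel it was 9.50 and 9.61 on day 2 and 13.36 and 12.55 on day 4. High values thus appeared in treated skin on 1 day 2 array and in control skin on both day 4 arrays. It was the 1 gene called in the ethanol channel, with a difference of 3.40 (SE 0.24) and a limma adjusted p of 0.00926. Without the first day 2 array the change of the ratio was -3.37. Pf4 had 1 probe on the array, and Itga2b, another platelet gene looked up after these values were seen, had ratios of 0.08 and -0.13 on day 2 and 0.06 and -0.19 on day 4.

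Skeletal muscle genes were lower on day 4 in another way, since the second day 4 array was the lowest. Of 35 measured members 13 lay lower without overlap and 0 higher, against 12.7% and 16.7% of all genes, 34 had a change below 0, and the median change was -0.40. Its median ratio was -0.31 and 0.07 on day 2 and -0.31 and -0.83 on day 4. Tnnt1, the slow troponin T, had 0.21 and 0.50 against -0.23 and -1.11, a change of -1.03 (SE 0.34), and Ttn (titin) had 0.06 and 0.43 against -0.90 and -0.39. Myh4, a fast myosin heavy chain, had 0.09 and 1.53 against 0.55 and -0.86 and overlapped. Other probes of titin gave changes from -0.86 to 0.71. Without the second day 4 array the list median was -0.13, and without the second day 2 array it was -0.13 as well. How much muscle each skin sample held was not tested.

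**Figure D4:**
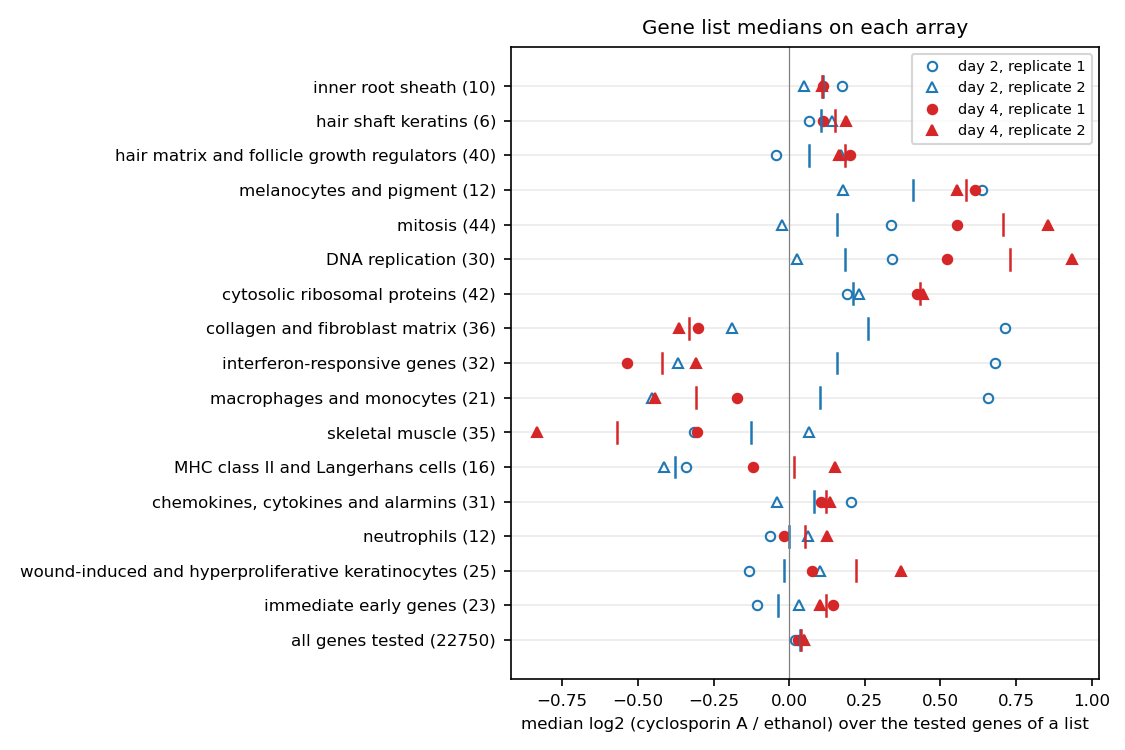
Median log2 ratio of cyclosporin A-treated over ethanol-treated skin over the measured genes of each list (number in brackets), 1 symbol per array and a short bar for the mean of each day. Mitosis, DNA replication, ribosomal and class II lists have both day 4 arrays above both day 2 arrays; the collagen, interferon and macrophage lists have the first day 2 array near 0.7 and the other 3 below 0.

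Genes of the drug's own pathway showed no common direction. Of 23 measured genes of calcineurin, NFAT and the cyclophilins 3 lay higher and 5 lower without overlap, the changes ranged from -0.45 to 0.38, and the median was -0.02. T cell genes had a median change of 0.08 over 21 measured members, with 5 higher and 2 lower without overlap. For all genes these shares were 16.7% and 12.7%. The 18 remaining lists had medians from -0.04 (unfolded protein response) to 0.28 (cholesterol synthesis).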

How the data were processed

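The authors deposited 1 scanner file per 2-colour Agilent array. The submitters' processing notes name Agilent Feature Extraction 9.1. The median spot intensities used here are linear scanner values per the file headers, not normalised by the authors. The deposited values hold log10 ratios of red over green that equal the scanner's own. Total RNA was extracted from back skin, per the labels' protocols.

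The 1639 control spots of 45018 (3.64%) were left out. Intensities were corrected with normexp (offset 50) on local background and normalised by loess within each array in limma 3.58.1 (R 4.3.3), giving log2(Cy5/Cy3). Spots of a probe were averaged. Kept were 27938 of 41174 probes, those whose red or green signal cleared background in both samples of any day, and each gene was represented by its brightest probe. Names came from RefSeq (GRCm38.p6): 22951 probes matched by accession, 67 by symbol and 18156 stayed unnamed. Limma fitted 1 mean per day over all 6 arrays, with Benjamini-Hochberg adjustment over all genes. A fit drops a missing array value, which 76 genes have. Channels were compared after Aquantile normalisation. No spot was saturated, and 2 arrays per day limit the precision. The procedure was tested on simulated data.

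Named are the 15 genes with the largest change in each direction (called genes first, then set-apart genes above background throughout), 2 to 4 members with the largest change of each described list, and Fbp1, Krt71, Shh, Cd74 and Hamp2. Members and lists were chosen with earlier results of these data known. The main fit treated the samples as unpaired. Deviations of same-numbered arrays correlated at 0.0070 (days 2 and 4), -0.28 (days 2 and 7) and -0.022 (days 4 and 7). With 2 arrays per day these values cannot tell whether same-numbered samples share animals or handling.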

Additional observations from a re-analysis of the deposited data

Results flagged for a closer look

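In 10 of the named genes both day 2 ratios lay on one side of 0 and both day 4 ratios on the other. Those below the control on day 2 and above it on day 4 were H1f4, with a change of 1.85, Ccl19 (1.39), Ccl17 (1.24), Gpnmb (1.03) and Dusp2 (0.96). Those above the control on day 2 and below it on day 4 were Pf4 (-5.67), C1s1 (-2.19), Col3a1 (-1.21), Tnnt1 (-1.03) and Ttn (-0.89). The limma adjusted p of the difference between the days was 0.999 for each, so none passed the test. Over all genes 651 (2.86%) crossed 0 upwards in this way and 662 (2.91%) downwards. A constant dye effect shifts where 0 lies. Groups of 2 arrays were not examined for outlying samples.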

How the results depend on the processing

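No gene was called for the ratio change under any setting that kept all 4 arrays of days 2 and 4, where the lowest adjusted p ranged from 0.175 (median centring) to 1. With the replicate number as a replicate block, limma called 0 genes, 462 had an unadjusted p under 0.05, the mitosis median was 0.57 and the ethanol channel had 2 calls in place of 1. Set-apart genes with the higher ratio numbered 22 without background correction, 346 from the processed signals and 271 from the deposited log ratios, and those with the lower ratio 356, 356 and, with median centring, 52. Genes without overlap numbered 2212 higher with median centring, 5891 higher and 4863 lower without the filter on dim probes, and 2371 and 1718 among probes above background throughout, where fewer genes were tested. The inner root sheath median was 0.18 with offset 16, 0.42 from processed signals, 0.23 from deposited ratios, 0.19 with median centring and -0.092 among probes above background throughout, which leave out dim keratins. The hair shaft median was 0.61 from both processed and deposited values, 0.043 with median centring and 0.16 from background-subtracted signals, a setting chosen after seeing the data. From processed and deposited values the ribosomal median was 0.32 and the early gene median 0.20, and the neutrophil median was 0.28 among probes above background throughout. The chemokine median turned to -0.053 (median centring), -0.0164 (scaling between arrays), -0.0159 (no filter) and -0.0090 (mean over probes); the cause was not tested.

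With 1 array left out, 0 genes were called higher and 0 to 1 lower, which was Pf4 at -7.97 without day 2 replicate 2 (lowest adjusted p 0.0383). Set-apart genes numbered 35 to 203 higher and 34 to 317 lower, and genes without overlap 3805 to 9037 and 2888 to 7827; fewer arrays make separation easier. Calls numbered 0 to 1 in the cyclosporin A channel and 2 to 21 in the ethanol channel. List medians ranged from 0.10 to 0.25 (inner root sheath), 0.024 to 0.18 (hair shaft), 0.011 to 0.16 (matrix regulators), 0.22 to 0.56 (melanocytes), 0.42 to 0.75 (mitosis), 0.36 to 0.78 (DNA replication), 0.21 to 0.29 (ribosomal), -1.03 to -0.16 (collagen), -1.11 to -0.033 (interferon), -0.97 to 0.16 (macrophages), -0.69 to -0.13 (muscle), 0.21 to 0.55 (class II), -0.071 to 0.10 (chemokines), 0.09 to 0.15 (neutrophils), 0.071 to 0.53 (wound) and -0.022 to 0.26 (early genes). Without day 2 replicate 1 the macrophage median was 0.16, the early gene median -0.022, Krt33a -0.20, Ednrb 0.094, Fcgr1 0.13, F13a1 0.012 and Egr1 -0.022, all of the opposite sign. The other end of the range, without day 2 replicate 2, was 0.84 for Krt33a, -1.82 for Ednrb, -2.46 for Fcgr1, -2.17 for F13a1 and 1.36 for Egr1, and the chemokine median was -0.071 without day 2 replicate 2.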

Other observations

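Histone genes were grouped after their values were seen, because H1f4 and H2ac13 were among the largest changes, so their counts are a description. Of 28 measured histone genes 17 lay higher on day 4 without overlap and 2 lower, against 16.7% and 12.7% of all genes. The median change was 0.37. The list median of the ratio was 0.12 and -0.09 on day 2 and 0.34 and 0.31 on day 4; the ethanol channel differed by a median of -0.30 and the cyclosporin A channel by 0.04. H2ac4 (change 1.32), H2ac15 (0.98) and H2ac10 (0.97), genes of histone H2A, had large values, while the H2B gene H2bc12 had -0.04 and the H3 gene H3c4 -0.08. Histone genes of one type have near-identical sequences, so their probes may share signal.

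Wnt4, a Wnt ligand, was set apart, with ratios of 0.01 and 0.18 on day 2 and of 0.21 and 4.54 on day 4. The size of its change rested on the second day 4 array, since the first was barely above day 2. Wnt4 is not among the largest changes described one by one, because it did not clear background in red and green on every array.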
